A study of Mus musculus with 8 samples.

Results

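The Th1 programme genes described here are 8 mouse genes chosen by name: Ifng, Tbx21, Eomes, Runx3, Hlx, Il12rb1, Il12rb2 and Cxcr3. They were 8 of 18193 genes with at least 1 probe set, a group of array probes for 1 transcript, that the platform annotation gives to that gene alone. Together they had 10 such probe sets: 2 for Eomes, 2 for Runx3 and 1 for each other gene. Where a gene had 2, the one brighter on average across all 8 arrays was used, and the other is given beside it. Levels are deposited log2 values, so 1 unit is a doubling, and levels of different probe sets cannot be set against each other.

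Expression was measured on 8 Affymetrix arrays, 2 in each of 4 groups of CD4 T cells from C57BL/6 mice or mice on that background. Follicular helper cells (Tfh) were sorted by flow cytometry as CD4+CXCR5+ cells from the spleen, 7 days after mice were immunized with KLH, a foreign protein, and were then stimulated for 4 h with anti-CD3. Th1, Th2 and Th17 cells began as naive CD4 T cells of OT-II mice aged 6 to 8 weeks, whose transgenic T cell receptor recognizes 1 ovalbumin peptide, and were cultured for 5 days with that peptide and antigen-presenting cells. Th1 cultures received IL-12 and anti-IL-4, Th2 cultures IL-4 and anti-IFNg, and Th17 cultures IL-6, TGFb, anti-IL-4 and anti-IFNg. Source, T cell receptor and handling thus changed together between Tfh and the cultured types and cannot be told apart from cell type. The labels give a restimulation for Tfh alone, and they leave unsaid if the 2 arrays of a group had different mice or cultures behind them. A p-value then measures the spread between these samples, which may be technical.

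Th1 cells are helper T cells that act on macrophages and other cells through interferon gamma. Interleukin 12 binds a receptor of 2 chains, Il12rb1 and Il12rb2, and signals through Stat4. Signals from interleukin 12 and interferon gamma raise the T-box factor Tbx21, also called T-bet, which with its relative Eomes and with Runx3 and Hlx acts on Ifng. Cxcr3, a chemokine receptor, is a known target of Tbx21 and guides Th1 cells to sites where interferon-induced chemokines are made.

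The promoter windows of Ifng, Il12rb2 and Cxcr3 are shown because these genes are 3 of the 4 called between Tfh and Th1: Ifng and Il12rb2 had lower levels in Tfh than in Th1, and Cxcr3 a higher level. Each window runs from 250 bases before to 50 after the annotated start and is credited to RefSeq, build GRCm38.p6. All 8 genes except Il12rb1 had such a window in the table used, 8 windows in all, with 2 for Runx3. Capitals mark matches on either strand to TCACAC (the core letters of a T-box site), to TGTGGT or TGCGGT (a RUNX site) or to TTCNNNGAA (a STAT site), searched with overlaps allowed.
Ifng, chr10:118440796-118441095, plus strand: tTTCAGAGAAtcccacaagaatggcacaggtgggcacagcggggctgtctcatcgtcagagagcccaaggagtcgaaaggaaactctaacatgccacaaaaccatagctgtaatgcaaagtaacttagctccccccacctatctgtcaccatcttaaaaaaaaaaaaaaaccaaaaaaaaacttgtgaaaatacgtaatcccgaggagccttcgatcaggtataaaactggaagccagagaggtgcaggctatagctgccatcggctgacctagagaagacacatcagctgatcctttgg
Il12rb2, chr6:67376139-67376438, minus strand: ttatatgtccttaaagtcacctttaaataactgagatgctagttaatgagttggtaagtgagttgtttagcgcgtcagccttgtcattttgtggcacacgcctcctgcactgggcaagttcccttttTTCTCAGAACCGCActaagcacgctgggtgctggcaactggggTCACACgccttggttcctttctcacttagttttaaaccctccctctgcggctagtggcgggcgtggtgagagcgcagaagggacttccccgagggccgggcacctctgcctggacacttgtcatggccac
Cxcr3, chrX:101734098-101734397, minus strand: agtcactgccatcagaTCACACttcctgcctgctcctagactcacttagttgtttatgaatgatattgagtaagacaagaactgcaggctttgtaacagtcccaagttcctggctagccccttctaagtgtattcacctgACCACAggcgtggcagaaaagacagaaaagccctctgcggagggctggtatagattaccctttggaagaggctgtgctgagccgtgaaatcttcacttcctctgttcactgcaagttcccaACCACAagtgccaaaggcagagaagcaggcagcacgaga
The Ifng window held 1 STAT match and neither of the other letters. The Il12rb2 window held 1 STAT match, 1 RUNX match that shares 1 base with it, and 1 T-box match, 80 bases before the start. The Cxcr3 window held 1 T-box match and 2 RUNX matches. The Tbx21, Eomes and Hlx windows held no match, and 1 of the 2 Runx3 windows held 2 RUNX matches. The T-box letters were found in 14.5% of all 32851 windows, the RUNX letters in 22.4% and the STAT letters in 8.3%, so the matches are a description of these letters alone.

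The deposited values were spread differently in the Tfh arrays, with 65th percentiles of 6.91 and 6.98, against 5.23 to 5.31 in the 6 cultured arrays. The median difference over all 11178 tested genes was 0.85 for Tfh minus Th1, 0.84 for Tfh minus Th2 and 0.83 for Tfh minus Th17, and differences in Tfh are given as deposited and, for leading genes, relative to that median gene. The Tfh arrays were also nearly alike, since 11 tested genes lay more than 1 log2 unit apart in the pair, while the count for the Th1 pair was 1435, for the Th2 pair 696 and for the Th17 pair 1339. Of the Th2 and Th17 lineage genes, Il5 stood at 11.51 and 11.28 in Th2, against 2.19 to 4.02 elsewhere, and Il17a at 14.35 and 13.93 in Th17, against 8.67 to 10.98 elsewhere. Il4, the Th2 cytokine, was also highest in both Th2 arrays. It read 8.49 and 8.25 in Tfh, 6.11 and 10.60 in Th1, 15.20 and 15.57 in Th2 and 5.54 and 3.46 in Th17. Gata3, the Th2 regulator, did not separate Th2 from Tfh. It read 10.67 and 10.52 in Tfh, 4.95 and 7.74 in Th1, 10.44 and 11.13 in Th2 and 5.95 and 6.97 in Th17. All 6 T cell markers on the array lay above the filter level of 3.13 on all 8 arrays. The 7 neutrophil markers, which the CD4+CXCR5+ gate would leave out, were all above that level in both Tfh arrays, with a log2 summed level of 16.13 and 16.08, against 5.27 to 11.85 in the cultured arrays. Their part in the Tfh differences was not tested.

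A gene was called when limma's moderated test, fitted on all 8 arrays, gave a Benjamini-Hochberg adjusted p under 0.05 over the tested genes and a difference of at least 1 log2 unit. All 8 genes passed the filter on low values, which asked for more than 3.13 (the 50th percentile of the deposited values) on 2 or more arrays. With the probe sets used, 7 of the 8 genes exceeded that level on all 8 arrays, and Hlx exceeded it on 5.

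**Figure D1:**
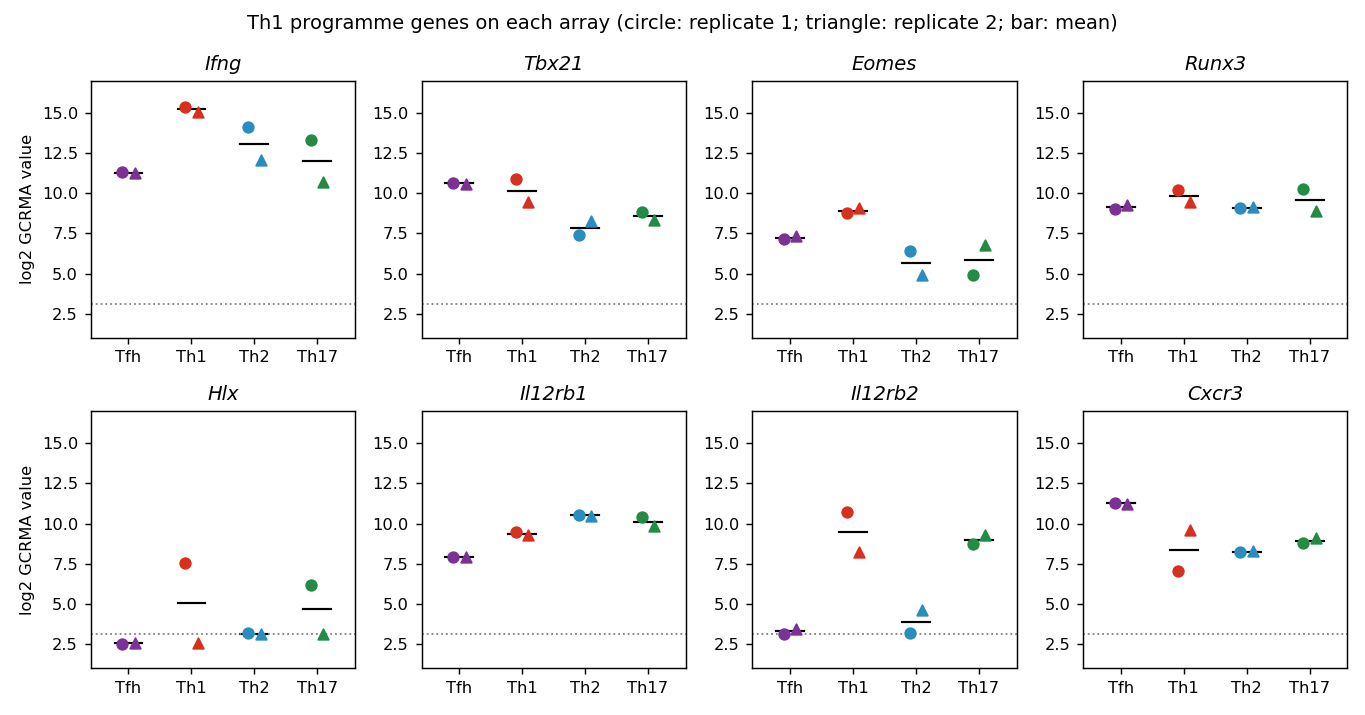
Log2 GCRMA values of the 8 genes on each array by group, with the probe set used for each gene; circles are replicate 1, triangles replicate 2, bars group means, and the dotted line is the filter level of 3.13. Ifng is highest in both Th1 arrays, Il12rb2 is high in the Th1 and Th17 arrays and near the dotted line in Tfh, Cxcr3 is highest in both Tfh arrays, and Hlx is high on 1 Th1 and 1 Th17 array.

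Ifng, which encodes interferon gamma, the cytokine that defines Th1 cells, had its highest levels in Th1. It stood at 11.34 and 11.25 in the Tfh arrays, 15.39 and 15.07 in Th1, 14.12 and 12.09 in Th2 and 13.30 and 10.72 in Th17. Both Th1 arrays lay above all 6 others, and the Th17 arrays overlapped those of Th2 and of Tfh. The Th1 values were at the 99.9th and 99.8th percentile of their arrays, and every other array was at the 93.3rd percentile or above, so Ifng signal was among the brightest on all 8 arrays, those cultured with anti-IFNg included. Since these are bulk samples, fewer cells that express a gene and less of its RNA per cell cannot be told apart. Tfh was lower than Th1 by -3.93 (SE 0.97, adjusted p = 0.0141 in limma) and by -4.78 relative to the median gene, a call that held after median shift and quantile normalization but was lost on leaving out Tfh replicate 1 (adjusted p = 0.0627), Tfh replicate 2 (0.0664) or Th1 replicate 1 (0.0592). The differences of -1.81 against Th2 (SE 0.97, adjusted p = 0.15) and -0.72 against Th17 (adjusted p = 0.54) missed the threshold. Th1 minus Th2 was 2.12 (95% interval -0.28 to 4.53, adjusted p = 0.374) and Th1 minus Th17 was 3.21 (0.81 to 5.62, adjusted p = 0.359), neither called although the arrays did not overlap. The order of the group means was Th1, Th2, Th17 and Tfh, and no neighbours in it differed past the threshold.

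Tbx21, the T-box factor that directs Th1 differentiation, had levels in Tfh within the range of the Th1 arrays and above those of Th2 and Th17. Its values were 10.66 and 10.59 in Tfh, 10.89 and 9.43 in Th1, 7.38 and 8.30 in Th2 and 8.82 and 8.32 in Th17. Both Tfh arrays lay between the 2 Th1 arrays, and all 4 of these lay above the Th2 and Th17 arrays. Tfh minus Th1 was 0.46 (95% interval -0.87 to 1.80, adjusted p = 0.477), with the direction turned to -0.74 by median shift and -0.50 by quantile normalization. Tfh was higher than Th2 by 2.78 (SE 0.54, adjusted p = 0.00541 in limma), 1.95 relative to the median gene, and this call held in all 3 scalings and without each array in turn. Tfh was higher than Th17 by 2.06 (SE 0.54, adjusted p = 0.0178) and by 1.23 relative to the median gene. This call was lost after median shift (0.90, adjusted p = 0.199) and quantile normalization (1.02, adjusted p = 0.147), and on leaving out either Tfh array (adjusted p = 0.0804 and 0.0737) or the second Th17 array (0.0807). Th1 minus Th2 was 2.32 (SE 0.54, adjusted p = 0.127) and Th1 minus Th17 was 1.59 (SE 0.54, adjusted p = 0.411). Without Th1 replicate 2 the difference from Th2 was 3.05 and passed (adjusted p = 0.0497).

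Eomes, the second T-box factor, known from CD8 T cells and NK cells, had a probe set (1426001_at) at 7.13 and 7.35 in Tfh, 8.76 and 9.07 in Th1, 6.39 and 4.92 in Th2 and 4.91 and 6.75 in Th17. With it the 2 Th1 arrays were the highest, the Tfh arrays came next, and the Th2 and Th17 arrays overlapped. Its other probe set (1435172_at) read 8.18 and 8.16 in Tfh, 7.31 and 8.10 in Th1, 5.58 and 3.73 in Th2 and 3.01 and 5.63 in Th17. With this probe set both Tfh arrays were above all others, so the probe sets gave opposite orders for Tfh and Th1 and the same order of both above Th2 and Th17. Tfh minus Th1 was -1.67 (SE 0.72, adjusted p = 0.0862) with the first and 0.47 (SE 0.98, adjusted p = 0.698) with the second. The first was called lower in Tfh after median shift (-2.88, adjusted p = 0.0149), after quantile normalization (-3.19, adjusted p = 0.0116) and without Th17 replicate 1 (-1.67, adjusted p = 0.039) or Th17 replicate 2 (adjusted p = 0.0391).

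Against the other cultured types Eomes had some of the largest differences of the 8 genes. Th1 minus Th2 was 3.26 (SE 0.72, adjusted p = 0.115) with the first probe set and 3.05 (SE 0.98, adjusted p = 0.227) with the second, and Th1 minus Th17 was 3.09 (SE 0.72, adjusted p = 0.259) and 3.38 (SE 0.98, adjusted p = 0.344). None of these 4 passed the threshold, while Th1 and the other 2 types did not overlap with either probe set. Tfh minus Th2 was 1.59 (SE 0.72, adjusted p = 0.0994) and 3.52 (SE 0.98, adjusted p = 0.0217), and Tfh minus Th17 was 1.41 (SE 0.72, adjusted p = 0.135) and 3.85 (SE 0.98, adjusted p = 0.0161), so the second probe set was called and the first was not. The first turned direction after quantile normalization (-0.05 against Th2 and -0.19 against Th17). With the first probe set the Tfh difference from Th2 was also called without Th17 replicate 1 (1.59, adjusted p = 0.0456) or Th17 replicate 2 (adjusted p = 0.0457), and that from Th17 without Th17 replicate 2 (2.33, adjusted p = 0.0298).

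**Figure D2:**
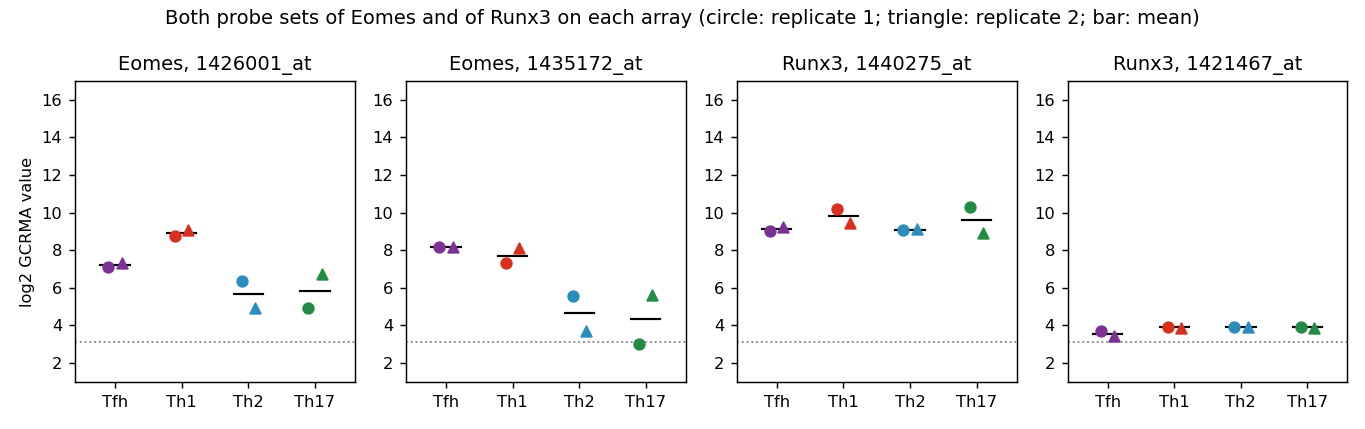
Log2 GCRMA values of both probe sets of Eomes and both of Runx3 on each array by group; circles are replicate 1, triangles replicate 2, bars group means, and the dotted line is the filter level of 3.13. The Eomes probe sets place Tfh below Th1 (1426001_at) and above it (1435172_at), and the second Runx3 probe set (1421467_at) stays between 3.43 and 3.94 on all 8 arrays.

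CD8 T cells and NK cells also express Ifng, Tbx21 and Eomes. Of 9 markers of these cells on the array, 7 lay above the filter level in each Tfh array, 7 in each Th1 array, 5 to 6 in Th2 and 6 in Th17, with a log2 summed level of 10.75 in both Tfh arrays, 11.21 to 14.15 in Th1, 14.54 to 15.43 in Th2 and 9.64 to 11.12 in Th17. The NK receptor gene Ncr1 was below the filter level on all 8 arrays, at 2.15 to 2.30, and Cd8a, which defines CD8 T cells, stood at 4.79 and 4.90 in Tfh, against 3.38 to 4.22 in the cultured arrays. Of 8 tested markers 1 was called higher in Tfh than in Th1 and 2 lower, where 42.8% of all genes were called higher and 6.16% lower. Of these 8, 5 had a Tfh minus Th1 difference above 0. Gzmk read 8.32 and 8.51 in Tfh and 4.59 and 2.55 in Th1. Tyrobp read 9.49 and 9.39 against 4.80 and 6.10, and Fcer1g 8.45 and 8.30 against 6.07 and 6.27. Cd8b1, Klrk1 and Gzma went the other way. Cd8b1 read 6.72 and 6.78 in Tfh and 7.39 and 7.19 in Th1, and Klrk1 2.62 and 2.60 against 11.67 and 9.18. Gzma read 7.46 and 7.73 in Tfh, and its 15.37 and 14.52 in Th2 were close to the summed level there. The part of such cells in the levels of the 3 genes was not tested.

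Runx3, a Runt-family factor that acts with Tbx21 on Ifng and silences Il4, varied little between groups. Its probe set 1440275_at read 9.01 and 9.26 in Tfh, 10.21 and 9.44 in Th1, 9.06 and 9.14 in Th2 and 10.28 and 8.90 in Th17. The highest values were in replicate 1 of Th1 and of Th17, and the 2 Th17 arrays lay above and below the values of all 6 other arrays. No comparison was called: Tfh minus Th1 was -0.69 (95% interval -1.89 to 0.50, adjusted p = 0.248) and Th1 minus Th2 was 0.72 (-0.47 to 1.91, adjusted p = 0.541). Relative to the median gene Tfh minus Th1 was -1.54, and it was called lower after median shift (-1.90, adjusted p = 0.0146) and quantile normalization (-1.90, adjusted p = 0.0174). The Tfh difference from Th17, -0.46 as deposited (SE 0.48), was likewise called after those scalings (-1.62, adjusted p = 0.0272, and -1.68, adjusted p = 0.0276), and it was called as deposited without Th17 replicate 2 (-1.15, adjusted p = 0.0415).

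Hlx, a homeobox factor that works with Tbx21 to raise Ifng, was high on single arrays. It read 2.51 and 2.54 in Tfh, 7.53 and 2.53 in Th1, 3.15 and 3.14 in Th2 and 6.17 and 3.13 in Th17. Replicate 1 of Th1 and of Th17 stood at the 78.3rd and 69.6th percentile of their arrays, while the other 6 arrays were at the 29.8th to 51.4th. No comparison passed the threshold, and with a 95% interval of -6.76 to 1.74 for Tfh minus Th1 (-2.51, adjusted p = 0.241) the data do not fix a direction. Without Th1 replicate 2 that difference was -5.01 and was called (adjusted p = 0.0206), and without Th1 replicate 1 the Th1 level was no longer above those of Th2 (-0.61) and Th17 (-2.12).

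Il12rb2, the inducible signalling chain of the interleukin 12 receptor, split the 4 groups into 2 levels. It stood at 3.13 and 3.41 in Tfh, 10.73 and 8.24 in Th1, 3.18 and 4.58 in Th2 and 8.71 and 9.29 in Th17. All 4 Th1 and Th17 arrays lay above all 4 Tfh and Th2 arrays, and both Th17 values fell between the 2 Th1 values. Both Tfh arrays were below the 50th percentile of their own array, at 46.3 and 49.8, so the level there was near that of the median probe set. Tfh was lower than Th17 by -5.72 (SE 0.88, adjusted p = 0.00231 in limma), and lower than Th1 by -6.21 (adjusted p = 0.00163). Relative to the median gene these were -6.55 and -7.06. Both calls held in all 3 scalings and without each array in turn. Tfh minus Th2 was -0.61 (95% interval -2.77 to 1.56, adjusted p = 0.565).

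Between cultured types the same gap was as large but not called. Il12rb2 in Th1 minus Th2 was 5.60 (SE 0.88, adjusted p = 0.0528), and in Th2 minus Th17 it was -5.12 (SE 0.88, adjusted p = 0.0869). The first passed after median shift (adjusted p = 0.0467) and without Th1 replicate 2 (6.85, adjusted p = 0.0192), and the second passed without Th1 replicate 1 (adjusted p = 0.035) or Th1 replicate 2 (0.0354). Th1 minus Th17 was 0.49 with a 95% interval of -1.68 to 2.65 (adjusted p = 0.908), and it was -0.76 without Th1 replicate 1.

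Il12rb1, the shared chain that also serves the interleukin 23 receptor, ran the other way among the cultured types. It read 7.90 and 7.92 in Tfh, 9.45 and 9.28 in Th1, 10.55 and 10.48 in Th2 and 10.39 and 9.85 in Th17. The groups did not overlap in any of the 6 comparisons, with the order Th2, Th17, Th1 and Tfh. Tfh was lower than Th1 by -1.45 (SE 0.20, adjusted p = 0.00149 in limma), lower than Th2 by -2.60 (adjusted p = 0.000179) and lower than Th17 by -2.21 (adjusted p = 0.000351). Relative to the median gene these were -2.30, -3.44 and -3.03, and all 3 calls held in all 3 scalings and without each array in turn. Th1 minus Th2 was -1.15 (SE 0.20, adjusted p = 0.069) and Th1 minus Th17 was -0.75 (SE 0.20, adjusted p = 0.311), both short of the threshold. The first passed without Th17 replicate 1 (adjusted p = 0.0298) or Th17 replicate 2 (0.0291).

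Cxcr3, the chemokine receptor of Th1 and other effector T cells, had its highest levels in Tfh. It stood at 11.30 and 11.23 in Tfh, 7.06 and 9.60 in Th1, 8.22 and 8.28 in Th2 and 8.78 and 9.09 in Th17. Both Tfh arrays lay above all 6 cultured arrays, and the 2 Th1 arrays held both the lowest and the highest cultured values. Tfh was higher than Th1 by 2.93 (SE 0.76, adjusted p = 0.0168 in limma), than Th2 by 3.01 (adjusted p = 0.0151) and than Th17 by 2.33 (adjusted p = 0.0378). Relative to the median gene these were 2.09, 2.17 and 1.51. All 3 calls were lost after median shift (adjusted p = 0.0975, 0.0848 and 0.235) and after quantile normalization (0.061, 0.053 and 0.146). Each also ended without Tfh replicate 1 (adjusted p = 0.0762, 0.0701 and 0.132) or Tfh replicate 2 (0.0713, 0.0658 and 0.122). The call against Th2 ended too without Th2 replicate 1 (0.0625) or 2 (0.0583), and that against Th17 without Th2 replicate 1 (0.0642) or 2 (0.0637) or Th17 replicate 1 (0.129) or 2 (0.0932).

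Cxcr3 did not mark Th1 among the cultured types. Th1 minus Th2 was 0.08 (95% interval -1.80 to 1.96, adjusted p = 0.991) and Th1 minus Th17 was -0.60 (-2.48 to 1.28, adjusted p = 0.856). The direction hung on the Th1 arrays: against Th2 it was 1.35 and called higher without Th1 replicate 1 (adjusted p = 0.0476) and -1.19 without Th1 replicate 2 (adjusted p = 0.0582), and against Th17 it was 0.67 (adjusted p = 0.175) and -1.87, called lower (adjusted p = 0.0434).

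**Figure D3:**
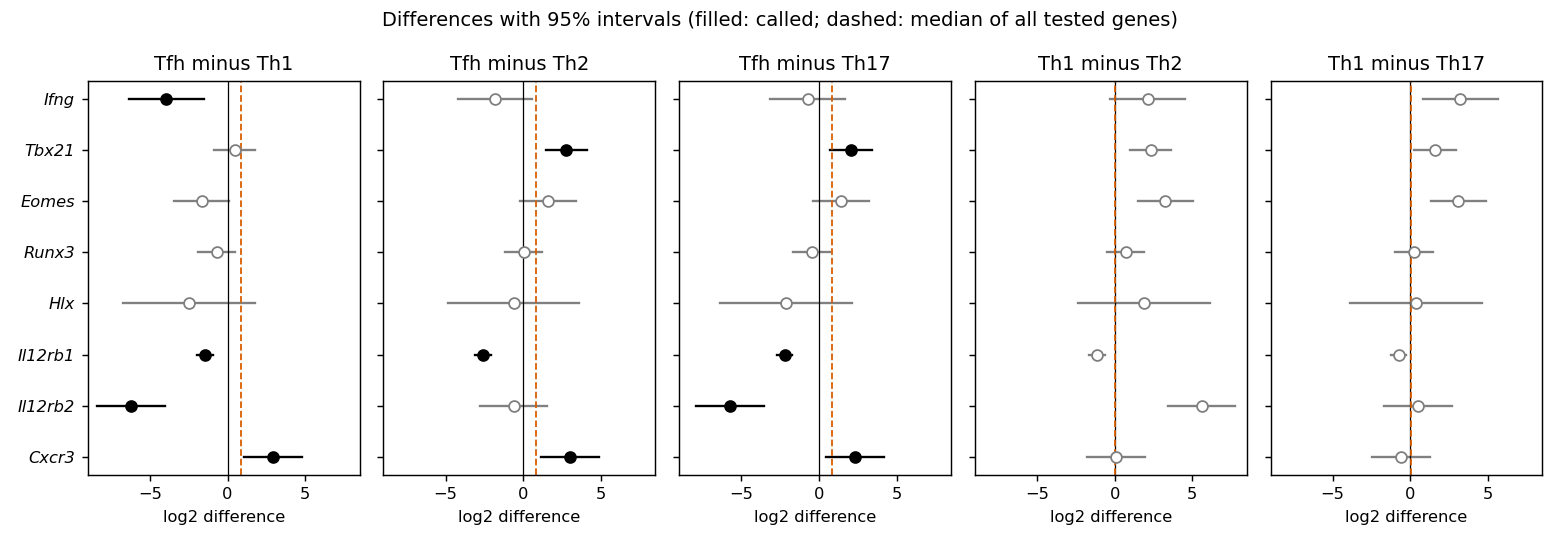
Log2 difference of each of the 8 genes in 5 comparisons, first group minus second, with 95% intervals from the moderated fit; filled points were called, open points were not, and the dashed line is the median of all 11178 tested genes. Il12rb2 and Ifng lie left of 0 and Cxcr3 right of 0 for Tfh minus Th1, and no point is filled for Th1 minus Th2 or Th1 minus Th17.

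Over the 8 genes, the comparison of Tfh with Th1 gave 1 called higher and 3 called lower in Tfh. Of all genes 48.9% were called there, 42.8% higher and 6.16% lower. The median difference of the 8 genes was -1.56, against 0.85 for all tested genes. Tfh against Th2 gave 2 higher, Tbx21 and Cxcr3, and 1 lower, Il12rb1, where 49.7% of all genes were called, 42.8% higher and 6.89% lower. Tfh against Th17 gave 2 higher, Tbx21 and Cxcr3, and 2 lower, Il12rb1 and Il12rb2, where 47.9% were called, 41.8% higher and 6.17% lower. The arrays did not overlap for 6 of the 8 genes in each, as for 86.5%, 89.8% and 87% of all genes against Th1, Th2 and Th17, and 69.1%, 68.9% and 68% of all genes had an unadjusted p under 0.05. These 3 comparisons share the Tfh arrays. Counting the nearly identical Tfh arrays as 1 replicate left 2 called of 8 in each of the 3 comparisons, Il12rb1 and Il12rb2 against Th1 and Th17, and Tbx21 and Il12rb1 against Th2. Of all 11178 genes, 4046 were then called higher and 474 lower against Th1, 4126 and 542 against Th2, and 3905 and 461 against Th17.

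Between the cultured types 0 of the 8 genes were called in limma. Over all genes 1.24% were called for Th1 against Th2 (0.349% higher and 0.895% lower), 0.143% for Th1 against Th17 (0.0626% and 0.0805%) and 0.671% for Th2 against Th17 (0.483% and 0.188%). At an unadjusted p under 0.05, Th1 was higher than Th2 in 3 genes (Tbx21, Eomes and Il12rb2) and lower in 1 (Il12rb1), where 15.7% of all genes passed. Th1 was higher than Th17 in 3 (Ifng, Tbx21 and Eomes) and lower in 1 (Il12rb1), where 9.72% of all genes passed. For Th2 against Th17 the count was 1, Il12rb2, where 13.5% passed. The arrays of Th1 and Th2 did not overlap for 6 of the 8 genes, as for 43.5% of all genes, those of Th1 and Th17 for 4, as for 31.7%, and those of Th2 and Th17 for 4, as for 44.5%.

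Stat4, the factor activated by the interleukin 12 receptor, was the called gene of the signalling list in Th1 against Th2 with the smallest adjusted p. It stood at 13.03 and 13.05 in Tfh, 11.51 and 11.95 in Th1, 9.15 and 9.08 in Th2 and 10.22 and 10.40 in Th17. The 4 groups did not overlap, in the order Tfh, Th1, Th17 and Th2. Th1 was higher than Th2 by 2.62 (SE 0.17, adjusted p = 0.00336 in limma), a call that held in all 3 scalings and without each array in turn. Tfh was higher than Th1 by 1.31 (SE 0.17, adjusted p = 0.00111), but by 0.83 after quantile normalization and 0.11 after median shift (adjusted p = 0.636). Ifngr2, the second chain of the interferon gamma receptor, read 6.19 and 6.59 in Tfh, 2.23 and 3.55 in Th1, 6.05 and 5.82 in Th2 and 5.69 and 5.66 in Th17. Both Th1 arrays were the lowest, and Th1 replicate 1 was below the filter level of 3.13, so the Th1 side of these differences is near background. Tfh was higher than Th1 by 3.50 (SE 0.43, adjusted p = 0.000974 in limma), or by 1.78 with all its probe sets averaged. Th1 minus Th2 was -3.04 (adjusted p = 0.0413). The second call ended after quantile normalization (adjusted p = 0.0536), with no filter on low values (0.0641), and without either Tfh array (0.144 and 0.143), either Th2 array (0.163 and 0.113) or either Th17 array (0.0621 and 0.0612).

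Of 13 tested genes of interleukin 12, 18, 27 and interferon gamma signalling 9 were higher in Tfh than in Th1, 0 lower by limma's test and 4 neither, and 0 were lower without p adjustment, where 42.8% of all genes were called higher and 6.16% lower. The count was 4 higher after quantile normalization, 2 after median shift and 5 with the Tfh arrays averaged or without either of them. Of all 11178 genes, 1747 were called higher after quantile normalization and 1605 after median shift. Besides Stat4 and Ifngr2, the kinase genes Jak1 (2.34, SE 0.27, adjusted p = 0.000773) and Jak2 (2.33, SE 0.49, adjusted p = 0.00778) were called, Jak2 no longer after median shift (1.13, adjusted p = 0.0966). The list median was 1.78, against 0.85 for all genes. In Th1 against Th2 1 rose, 1 fell and 11 were neither, and in Th1 against Th17 none of the 13 was called in limma, with 1 higher and 1 lower at an unadjusted p under 0.05; without Th1 replicate 1 or without Th1 replicate 2, 1 was called higher and 1 lower. Il18r1, a chain of the interleukin 18 receptor, is named outside the selection rule given below. It varied within Th1 (10.46 and 7.89) and Th17 (6.17 and 10.07), and read 10.54 and 10.67 in Tfh and 4.44 and 5.15 in Th2.

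Of 21 tested Th1 effector and surface genes 9 fell in Tfh against Th1, 0 rose by limma's test (1 with an unadjusted p under 0.05) and 12 were neither, with a median of -2.57 against 0.85 for all genes, of which 6.16% were called lower and 42.8% higher. The count that fell was 13 after either rescaling and 6 with the Tfh arrays averaged or without either of them, and without Th1 replicate 1 it was 6 with 3 called higher. Of all 11178 genes, 2365 were called lower in Tfh than in Th1 after quantile normalization and 3190 after median shift. Against Th2 4 of the 21 were higher in Tfh and 7 lower (median -1.47), and against Th17 1 was higher, 2 lower and 18 neither (median -0.41). Nkg7, a gene of cytotoxic granules, read 5.20 and 5.25 in Tfh, against 13.73 and 12.59 in Th1. It was lower by -7.93 (SE 0.89, adjusted p = 0.000696). Ccl3 and Ccl4, chemokine genes, were lower by -4.78 (SE 0.58, adjusted p = 0.000898) and -3.82 (SE 0.47, adjusted p = 0.000935), and Csf2, the gene for GM-CSF, by -4.76 (SE 0.39, adjusted p = 0.000232). All 4 calls held in all 3 scalings and without each array in turn.

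Among the cultured types few genes of this list were called. In Th1 against Th2 18 of 21 genes had a difference above 0, with a median of 1.52 against 0.02 for all genes, and 1 was called, Lta, where 0.349% of all genes were called higher. The count was 4 without either Th17 array, and without Th1 replicate 1 it was 0 higher and 1 lower. In Th1 against Th17 20 of 21 had a difference above 0, with a median of 2.23 against 0.01, and 0 were called in limma (8 higher and 0 lower at an unadjusted p under 0.05), with 5 called higher without Th17 replicate 1, 2 without Th17 replicate 2 and 1 without Th1 replicate 2. Lta, the gene for lymphotoxin alpha, read 11.66 and 10.88 in Th1, 8.18 and 7.45 in Th2, and 10.56 and 11.58 in Th17. Th1 exceeded Th2 by 3.46 (SE 0.45, adjusted p = 0.0302), a call that ended without either Tfh array (both 0.127), Th1 replicate 1 (0.0735), or Th2 replicate 1 (0.0705) or 2 (0.101), while Th1 and Th17 overlapped. Prf1, the gene for perforin, read 3.16 and 3.14 in Tfh, 10.86 and 8.12 in Th1, 8.47 and 4.39 in Th2 and 7.35 and 3.07 in Th17, and Gzmb, a granzyme gene, 9.18 and 9.23 in Tfh, 15.39 and 14.40 in Th1, 14.11 and 13.28 in Th2 and 12.49 and 8.75 in Th17. These 2 were chosen after their values were seen; both had their highest group mean in Th1, although Prf1 was higher in Th2 replicate 1 than in Th1 replicate 2, and within Th2 and within Th17 both were higher in replicate 1, as Ifng was.

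Of 13 tested transcription factors other than the members 5 were higher in Tfh than in Th1, 0 lower by limma's test (1 with an unadjusted p under 0.05) and 8 neither, with a median of 1.15. The 5 of 13 is near the 42.8% of all genes called higher. After quantile normalization 5 were higher and 1 lower, after median shift 1 higher and 3 lower (median -0.06), and without Th1 replicate 2 there were 5 higher and 3 lower (median -0.23), so the direction of the list median turned with the scaling and with that array. The count called higher was 3 without Tfh replicate 1. Of all 11178 genes, 1747 were called higher and 2365 lower after quantile normalization, and 1605 and 3190 after median shift. Runx1, a relative of Runx3, read 9.46 and 9.73 in Tfh, 6.81 and 6.56 in Th1, 9.14 and 9.56 in Th2 and 7.48 and 8.09 in Th17. Th1 was the lowest group: Tfh was higher by 2.90 (SE 0.28, adjusted p = 0.000404), in all 3 scalings. Th1 minus Th2 was -2.66 (SE 0.28, adjusted p = 0.017), a call that ended without either Tfh array (0.0832 and 0.083) or Th2 replicate 2 (0.0611). Nfatc1 (2.16, adjusted p = 0.00559), Ets1 (1.65, adjusted p = 0.00696) and Irf4 (1.74, adjusted p = 0.00812), factors of T cell activation and identity, were higher in Tfh as deposited but not after median shift (0.96, 0.44 and 0.53), and Irf4 not without Tfh replicate 1 (adjusted p = 0.0521). In Th1 against Th17 0 of 13 were called in limma, with 2 higher and 1 lower at an unadjusted p under 0.05; without Th17 replicate 2, 1 was called higher.

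Of 12 tested genes that interferon gamma induces 3 were higher in Tfh than in Th1, 0 lower by limma's test (0 without p adjustment) and 9 neither, with a median of 1.69. The 3 of 12 stands against 42.8% of all genes called higher. After median shift 2 were higher and 2 lower, and the count called higher was 6 without either Th17 array. It was 2 on leaving out Tfh replicate 1, Tfh replicate 2 or Th1 replicate 1. After median shift 1605 of all 11178 genes were called higher in Tfh than in Th1 and 3190 lower. Cxcl10, which encodes a ligand of Cxcr3, read 13.24 and 13.38 in Tfh, 6.20 and 7.33 in Th1, 7.09 and 4.85 in Th2 and 9.64 and 10.86 in Th17. Tfh was higher than Th1 by 6.55 (SE 0.83, adjusted p = 0.00107), in all 3 scalings and without each array in turn. Cxcl9, another Cxcr3 ligand gene, read 9.69 and 9.45 in Tfh and 2.63 and 5.59 in Th1. It was higher by 5.46 (adjusted p = 0.0145), a call lost after quantile normalization (4.30, adjusted p = 0.0591) and without Tfh replicate 1 (0.0696), Tfh replicate 2 (0.0617) or Th1 replicate 1 (0.0636). Tap1, a peptide transporter of antigen presentation, was higher by 2.48 (SE 0.54, adjusted p = 0.00891), but not after median shift (1.28, adjusted p = 0.0945) or with all its probe sets averaged (0.71). Ifng was lower and these 3 genes higher in Tfh than in Th1. The log2 summed level of 8 myeloid and dendritic cell markers was 11.73 and 11.67 in Tfh, against 5.68 and 7.01 in Th1. That level was 11.68 and 8.54 in Th2 and 10.36 and 8.29 in Th17. Itgax, 1 of these markers, was below the filter level in both Tfh arrays, and the part of such cells was not tested. In Th1 against Th2 and against Th17 0 of the 12 were called in limma, with 3 higher and 0 lower, and 1 higher and 1 lower, at an unadjusted p under 0.05; against Th2 1 was called higher without either Th17 array.

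Of 9 tested Th2 and Th17 lineage genes 4 were higher in Tfh than in Th1, 1 lower and 4 neither, with a median of 1.57; the 4 of 9 is near the 42.8% of all genes called higher. Ccr6, a chemokine receptor gene of Th17 and B cells, was higher by 7.80 (SE 0.54), Rora, a Th17 factor, by 5.74 (SE 0.95), and Gata3, the Th2 regulator, by 4.25 (SE 0.91), each in all 3 scalings. B cell markers were higher in Tfh than in Th1 as well, with 3 of 4 tested called (median 3.66, against 0.85 for all genes). Against Th2 and against Th17, 1 of the 4 was called higher, where 42.8% and 41.8% of all genes were. The log2 summed level of 6 on the array was 9.91 and 9.93 in Tfh, 5.88 and 7.38 in Th1, 8.08 and 9.73 in Th2 and 8.98 and 7.21 in Th17. Pax5, which defines B cells, was below the filter level on all 8 arrays, and the part of B cells in the Ccr6 level was not tested. Ccr4 (2.36, adjusted p = 0.0184) and Il5 (-1.19, adjusted p = 0.0394) were called as deposited. Il5 was below the filter level of 3.13 on both Tfh arrays (2.21 and 2.19) and on 1 of the 2 Th1 arrays (2.76, against 4.02 on the other), so its difference is between values near background. The Ccr4 call was lost after either rescaling (adjusted p = 0.347 after quantile normalization and 0.17 after median shift) and without Tfh replicate 1 (0.0691), Tfh replicate 2 (0.0887) or Th1 replicate 1 (0.0823). The Il5 call was lost after quantile normalization (adjusted p = 0.0619) and held in 1 of 8 fits that leave out an array, the one without Th1 replicate 1, and the difference was -0.56 without Th1 replicate 2. In Th1 against Th2 Il5 was the called gene, lower by -8.00 (SE 0.40, adjusted p = 0.0013), with the count called lower at 3 without Th1 replicate 2, and it remained called in all 3 scalings and without each array in turn. In Th1 against Th17 0 of 9 were called in limma, with 1 higher and 4 lower at an unadjusted p under 0.05; 1 was called lower without any 1 of the Th2 and Th17 arrays.

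**Figure D4:**
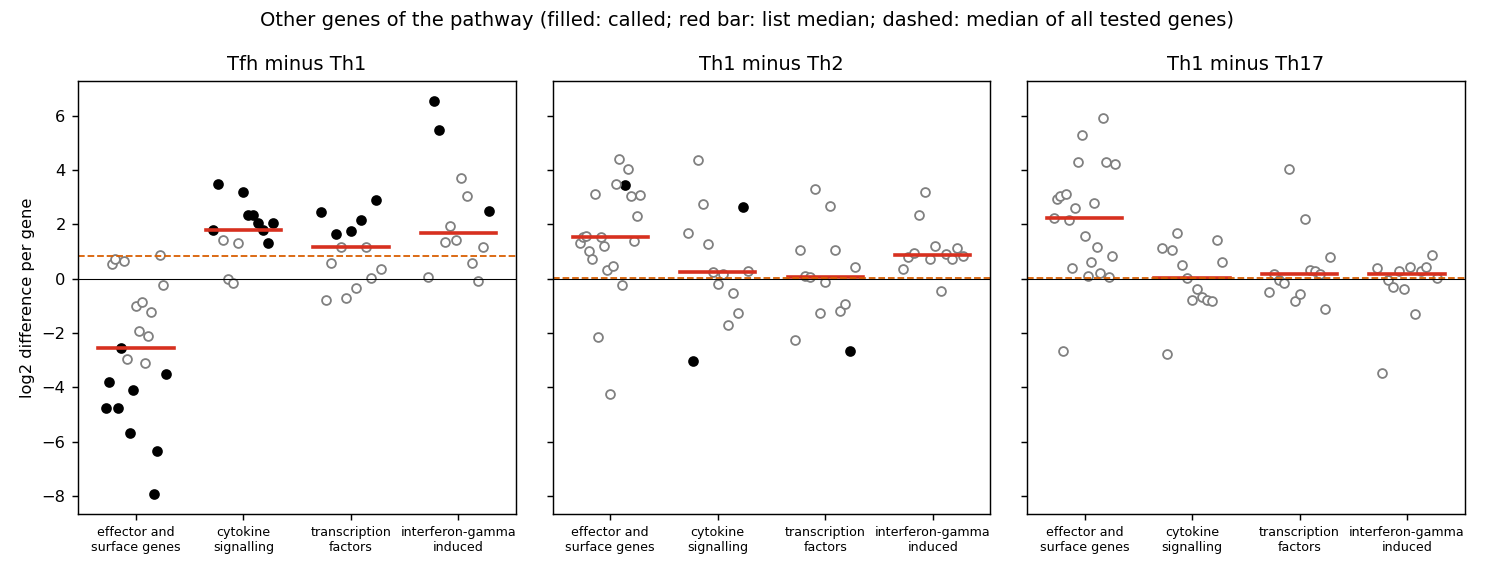
Log2 difference of each tested gene in 4 lists of other pathway genes, first group minus second, in 3 comparisons; filled points were called, red bars are list medians, and the dashed line is the median of all tested genes. The effector and surface genes have medians of -2.57, 1.52 and 2.23. Few points are filled for Th1 minus Th2, and no point is filled for Th1 minus Th17.

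The genes whose levels most resembled single members over the 8 arrays were taken by Pearson correlation across arrays, which share their 4 groups and the Tfh offset. Nearest Ifng were Tacc2 (0.973), Prf1 (0.969) and Pold2 (0.967). Nearest Tbx21 were Glipr1 (0.969), Tbkbp1 (0.968) and Utp25 (0.968). Nearest Il12rb2 were Tfap4 (0.975), Pgls (0.970) and Myc (0.965), nearest Eomes were Cd160 (0.930), Stxbp5 (0.915) and Aga (0.906), and nearest Cxcr3 were Paip2b (0.989), Brd9 (0.988) and Cebpzos (0.985). Over the 6 cultured arrays the nearest were Sympk to Ifng (0.991), Slc5a2 to Tbx21 (0.993), Pitpnc1 to Il12rb2 (0.992), Ninj2 to Eomes (0.988) and Brd9 to Cxcr3 (0.992), so Brd9 was the one gene here named for its member over both sets. With 11178 genes and so few arrays, values this high describe these arrays alone.

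Among the members themselves the highest correlation over the 8 arrays was 0.89, between Runx3 and Hlx, the 2 genes highest in replicate 1 of Th1 and Th17. The lowest was -0.82, between Tbx21 and Il12rb1. Over the 6 cultured arrays Eomes and Il12rb1 gave -0.92.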

How the data were processed

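Per the labels and the submitters' processing notes, the authors made biotin-labelled targets by in vitro transcription from Trizol-extracted total RNA and summarized the Affymetrix arrays with GCRMA, a method that uses probe sequence to estimate background. The deposited values are log2 expression values; the GCRMA version and the set of arrays processed together are not given in the sources used here. They were analysed as deposited. The number of arrays limits the precision.

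Of 45101 probe sets 34945 had 1 gene symbol in the platform annotation, 932 several and 9160 none, and 64 were controls. Per gene the probe set with the highest mean was kept, and 11178 of 18193 genes passed the filter. The test was two-sided, by limma 3.58.1 (R 4.3.3), on a model that gave each group 1 coefficient over 8 arrays, with the prior variance following mean level (residual degrees of freedom 4, prior 1.78). SE is that of the moderated fit. The fit was also run on simulated data with the same spread in every group and no Tfh offset. That run therefore does not bear on the offset or the closeness of the Tfh arrays here. Plots used matplotlib 3.10.9.

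The members, 10 gene lists and tests were chosen with earlier results of these data known. All 8 members are named; from each pathway list, up to 4 called genes each way with the smallest adjusted p in Tfh against Th1 and in Th1 against Th2 and Th17. Alternatives were other scalings, no filter, averaged probe sets, no trend, no fold threshold, leaving out each array, a replicate block, averaged Tfh arrays and cultured arrays only; for the list genes they were added after seeing the data. "All 3 scalings" means as deposited, after median shift and after quantile normalization.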

Additional observations from a re-analysis of the deposited data

How the results depend on the processing

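After median shift and after quantile normalization, Tfh versus Th1 lost the Cxcr3 call and gained Eomes and Runx3, both lower in Tfh. Tfh versus Th17 lost Tbx21 and Cxcr3 and gained Runx3, lower in Tfh, and Tfh versus Th2 lost Cxcr3. The number of members called changed by more than 1.5 times under few settings. Against 4 in Tfh versus Th1 and 4 in Tfh versus Th17, fewer members were called with the Tfh arrays averaged or without either of them. Fewer genes over the whole table were called in those fits too, so the fall was not particular to the members. Against 0 in Th1 versus Th2 the median shift gave 1, Il12rb2, and the fits without 1 array gave 0 to 2; those for Th1 versus Th17 and Th2 versus Th17 gave 0 to 1 each. With the Tfh arrays absent or averaged the spread is estimated from cultured arrays alone, and Th1 versus Th2 then had 5 higher and 23 lower genes over the whole table (cultured arrays only), against 39 and 100; with no filter on low values it had 27 and 73. Th1 versus Th17 had 7 and 9, against 1 and 2 with cultured arrays only or averaged Tfh arrays, 3 and 6 with no filter and 2 and 3 with the replicate block. Th2 versus Th17 had 54 and 21, against 22 and 4 with cultured arrays only, 19 and 3 with averaged Tfh arrays and 39 and 13 with no filter. Averaged Tfh arrays gave 4 and 22 in Th1 versus Th2. Fits without 1 array gave 4 to 101 and 22 to 146 in Th1 versus Th2, 1 to 53 and 2 to 59 in Th1 versus Th17, and 19 to 114 and 3 to 74 in Th2 versus Th17. Quantile normalization and median shift changed the Tfh counts over all genes most: in Tfh versus Th1 4780 higher and 689 lower became 1747 and 2365, and 1605 and 3190; in Tfh versus Th2 4784 and 770 became 1803 and 2381, and 1680 and 3248; in Tfh versus Th17 4667 and 690 became 1561 and 2266, and 1514 and 2903. Without a fold threshold the lower genes numbered 1196, 1239 and 1166.

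Directions that turned belonged to uncalled differences. Quantile normalization turned Tbx21 in Tfh versus Th1 (-0.50), Eomes (-0.05) and Runx3 (-1.22) in Tfh versus Th2, and Eomes in Tfh versus Th17 (-0.19); the median shift turned Tbx21 in Tfh versus Th1 (-0.74) and Runx3 in Tfh versus Th2 (-1.18). The mean of all probe sets turned Runx3 in Tfh versus Th2 (-0.15) and Eomes in Th2 versus Th17 (0.08). The other Eomes probe set turned Tfh versus Th1 (0.47) and Th2 versus Th17 (0.33), and the other Runx3 probe set Tfh versus Th2 (-0.33), Th1 versus Th2 (-0.01) and Th2 versus Th17 (0.01). Leaving out 1 array gave, for Tfh versus Th1, Tbx21 -0.26 to 1.19; for Tfh versus Th2, Runx3 -0.10 to 0.15 and Il12rb2 -1.31 to 0.09; for Tfh versus Th17, Ifng -2.01 to 0.57 and Runx3 -1.15 to 0.23; for Th1 versus Th2, Hlx -0.61 to 4.38 and Cxcr3 -1.19 to 1.35; for Th1 versus Th17, Runx3 -0.45 to 0.92, Hlx -2.12 to 2.88, Il12rb2 -0.76 to 1.73 and Cxcr3 -1.87 to 0.67; and for Th2 versus Th17, Ifng -0.20 to 2.38, Eomes -1.10 to 0.75, Runx3 -1.17 to 0.20 and Hlx -3.02 to 0.01. Where an array was left out its group kept 1 array, which is assumed to vary like the other groups. The cause of these changes was not tested. Ifng in Tfh versus Th2 was called after the median shift (-3.02, adjusted p = 0.0329).

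With the replicate number as a block the members called stayed at 4, 3, 4, 0, 0 and 0 in Tfh versus Th1, Tfh versus Th2, Tfh versus Th17, Th1 versus Th2, Th1 versus Th17 and Th2 versus Th17. Of all 11178 genes, 4827 were then called higher and 712 lower in Tfh versus Th1, 4833 and 795 in Tfh versus Th2, and 4710 and 699 in Tfh versus Th17. Between cultured types the counts were 30 and 85 in Th1 versus Th2, 2 and 3 in Th1 versus Th17, and 44 and 17 in Th2 versus Th17. Of the list genes, Lta (adjusted p = 0.0647) and Ifngr2 (0.0599) in Th1 versus Th2 were not called under the replicate block. The replicate block gave 6 of 12 interferon gamma induced genes higher in Tfh than in Th1, against 3, and 2 of 9 lineage genes lower in Th1 than in Th2, against 1. The labels give the numbers no meaning across groups; deviations of same-numbered arrays correlated at 0.255 for Th1 with Th17 and 0.268 for Th2 with Th17, and at -0.002 to 0.042 for the other pairs of groups, so the numbers were not taken to pair the samples.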
